A study of Mus musculus with 16 samples.

Results

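The chemokines of the mouse liver and the receptors that read them were followed in whole-liver RNA. The members are the protein-coding genes of the deposited table whose symbol starts with Ccl, Cxcl, Xcl, Cx3cl, Ccr, Cxcr, Xcr, Cx3cr or Ackr and ends in a number, with or without a letter after it. That rule, which uses no measured value, found 60 genes among the 25719 of the table: 38 ligands, 18 receptors and 4 atypical receptors. The study compared C57BL6J wild type (WT) mice with Klrk1-/- mice, which lack NKG2D, an activating receptor that NK cells and some T cells carry. Mice received normal chow diet (NCD) or the steatosis-steatohepatitis diet (SSD), which is rich in fat, fructose and cholesterol, for 3 weeks. Male mice were 8 to 12 weeks old when the diet began. There were 4 NCD-fed WT mice (numbered 1, 2, 3 and 5), 5 SSD-fed WT mice, 4 NCD-fed Klrk1-/- mice and 3 SSD-fed Klrk1-/- mice, with 1 library of whole liver per mouse. The question for these genes was whether the diet raises recruitment signals and their receptors, and whether it does so without NKG2D.

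Chemokines are small secreted proteins that draw leukocytes along a gradient through G protein-coupled receptors. The CC, CXC, XC and CX3C families are named after the spacing of their first cysteines, and a receptor is named after the family it binds. Atypical receptors bind chemokines without G protein signalling and remove or present them. In fatty liver, Ccl2 and Ccr2 are known for monocyte entry, Cxcl1, Cxcl2 and Cxcr2 for neutrophils, Cxcl9, Cxcl10 and Cxcr3 for T cells and NK cells, and Cxcl12 and Cxcr4 for retention of leukocytes and progenitors. Many ligands are made by resident cells such as hepatocytes, endothelium and Kupffer cells, whereas most receptors are read from leukocytes. In whole-liver RNA, fewer cells of a type and less RNA per cell cannot be told apart.

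Each mouse gave 19892025 to 28936707 reads on genes. Values are normalized counts, the reads of a gene divided by 1 factor per mouse; 3 reads, taken as the floor, correspond to 1.99 to 3.91 normalized counts. Klrk1 itself measured 20.1 to 28.7 in NCD-fed WT mice, 33.0 to 71.1 in SSD-fed WT mice, 1.23 to 8.71 in NCD-fed Klrk1-/- mice and 0.966 to 4.29 in SSD-fed Klrk1-/- mice, so every Klrk1-/- mouse was below every WT mouse. The summed hepatocyte markers Alb, Apoa1, Ttr, Tat and Serpina1a summed to 2189026 to 2495540 in NCD-fed WT, 1415708 to 1791537 in SSD-fed WT, 2113989 to 2825926 in NCD-fed Klrk1-/- and 1895366 to 2049078 in SSD-fed Klrk1-/- mice, so every SSD-fed mouse was below every NCD-fed mouse. Some libraries stood apart. Rilpl1 and Gdpd3, chosen after their values were seen, were high in the SSD-fed Klrk1-/- mice (900.2 to 950.3 and 229 to 492) and low in all 9 WT mice (45.6 to 101 and 7.82 to 31.3). NCD-fed Klrk1-/- mice 1 and 4 had 591 and 605 of Rilpl1 and 326 and 522 of Gdpd3, but mice 2 and 3 had 101 and 47.3 of Rilpl1 and 48.5 and 16.2 of Gdpd3. Mouse 3 thus lay within the WT values for both genes and mouse 2 for Rilpl1, although Klrk1 was low in both mice (8.71 and 4.98). SSD-fed WT mouse 1 was the highest of its group for 21 of the 30 members tested for the diet in WT mice (70%), against 32.5% of the 13091 genes tested there. Results are given also without these mice where that changed a call or moved a value far.

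The stretches of DNA just before the start of 6 members are shown because Cxcl1 and Cxcl2 are neighbours that share a receptor, Cxcl10 and Cxcr4 passed between genotypes on SSD, Cxcl12 passed in the interaction, and Ccl9 fell with SSD in both genotypes; Cxcl2 itself passed in no comparison. RefSeq promoter sequences (GRCm38.p6) were at hand for 46 of the 60 members, and the 250 bases before the start were read on both strands for the consensus site of NF-kB, for the core of the interferon-stimulated response element (TTTC, any 2 bases, TTTC) and for the TATA letters TATAAA. Capitals mark these matches in the sequences, each written 5′ to 3′ on the strand of its gene.
Cxcl1 (chr5:90890995-90891244, plus strand): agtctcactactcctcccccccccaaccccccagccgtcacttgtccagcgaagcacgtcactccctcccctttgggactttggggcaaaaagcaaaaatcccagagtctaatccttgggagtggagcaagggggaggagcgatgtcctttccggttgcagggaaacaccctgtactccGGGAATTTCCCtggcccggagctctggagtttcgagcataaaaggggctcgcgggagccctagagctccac
Cxcl2 (chr5:90903649-90903898, plus strand): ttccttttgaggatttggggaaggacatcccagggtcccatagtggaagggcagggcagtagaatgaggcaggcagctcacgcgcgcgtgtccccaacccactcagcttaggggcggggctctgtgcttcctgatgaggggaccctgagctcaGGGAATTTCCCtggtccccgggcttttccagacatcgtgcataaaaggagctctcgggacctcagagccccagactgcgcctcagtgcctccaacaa
Cxcl10 (chr5:92348890-92349139, minus strand): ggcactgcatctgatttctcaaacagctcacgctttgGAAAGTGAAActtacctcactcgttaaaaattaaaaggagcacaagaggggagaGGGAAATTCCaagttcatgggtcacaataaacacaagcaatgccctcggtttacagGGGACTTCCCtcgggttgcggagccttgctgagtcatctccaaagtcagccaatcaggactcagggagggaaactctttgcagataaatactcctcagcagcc
Ccl9 (chr11:83578637-83578886, minus strand): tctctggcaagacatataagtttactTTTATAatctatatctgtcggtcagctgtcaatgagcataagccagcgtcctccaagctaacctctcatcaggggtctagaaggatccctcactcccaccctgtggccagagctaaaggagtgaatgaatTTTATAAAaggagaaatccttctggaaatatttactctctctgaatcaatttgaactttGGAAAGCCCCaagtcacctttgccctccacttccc
Cxcr4 (chr1:128592300-128592549, minus strand): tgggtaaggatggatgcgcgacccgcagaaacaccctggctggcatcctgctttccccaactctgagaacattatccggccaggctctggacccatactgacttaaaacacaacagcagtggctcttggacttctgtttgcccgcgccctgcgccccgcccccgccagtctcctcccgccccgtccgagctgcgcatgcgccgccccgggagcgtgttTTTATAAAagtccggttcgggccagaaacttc
Cxcl12 (chr6:117168285-117168534, plus strand): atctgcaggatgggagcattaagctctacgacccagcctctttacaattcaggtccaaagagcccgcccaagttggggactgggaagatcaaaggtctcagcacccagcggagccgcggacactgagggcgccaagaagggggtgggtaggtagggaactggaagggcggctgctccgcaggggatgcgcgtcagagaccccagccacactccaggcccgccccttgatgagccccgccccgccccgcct

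The NF-kB consensus was found in 9 of the 53 stretches of these 46 members (some have more than 1 start), among them Cxcl1, Cxcl2, Cxcl10 and Ccl9, and in 3.9% of all 32851 promoter stretches of the same length. In Cxcl1 and Cxcl2 the letters GGGAATTTCC and, 1 base on, their reverse complement match, so that the site is read on both strands, 71 to 61 bases before the start of Cxcl1 and 97 to 87 before that of Cxcl2. Cxcl10 holds 2 separate NF-kB matches and 1 response element core, a core that occurred in 2.98% of all stretches. The letters TATAAA stood in 14 of the 53 stretches, against 12.37% of all stretches; in Ccl9 and Cxcr4 they overlap a match on the other strand, so the capitals there cover both. Cxcl12 held none of these letters in this window. A match is a description of the sequence and does not show that a factor binds there.

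**Figure D1:**
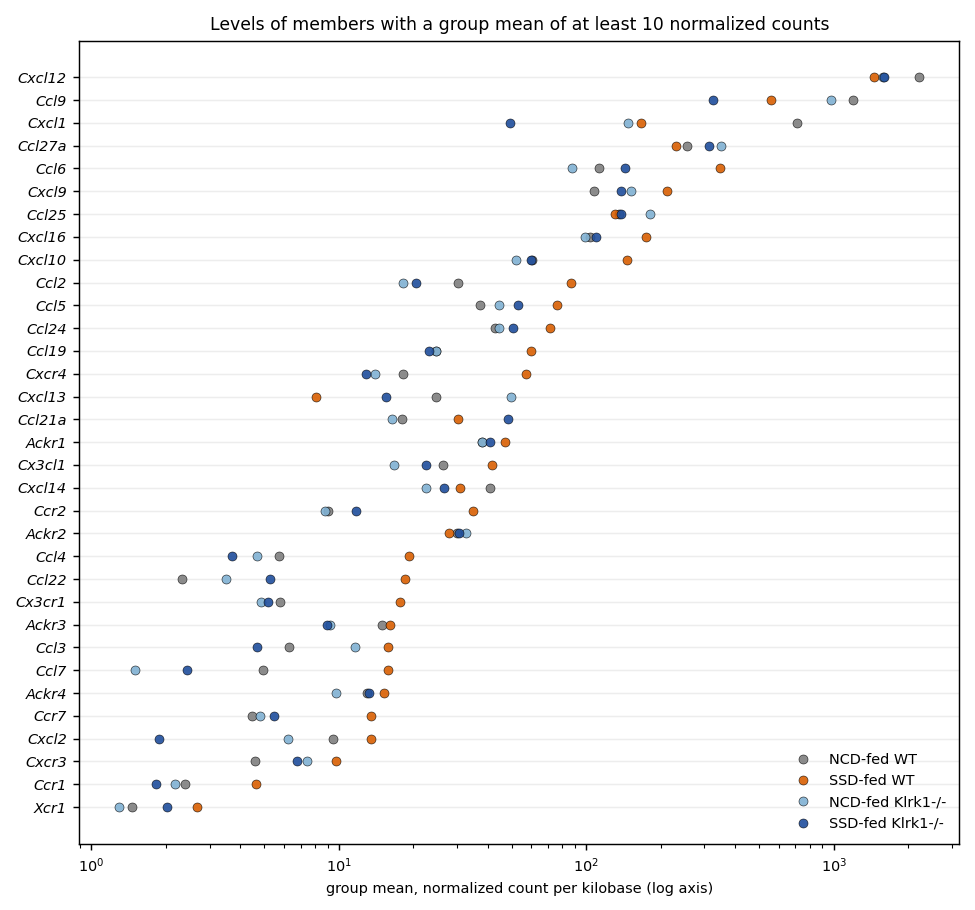
Mean level of each member with a group mean of at least 10 normalized counts, given as normalized counts per kilobase of gene length on a log axis, with 1 point per group. Cxcl12 and Ccl9 lead in all 4 groups, and the orange points of the SSD-fed WT mice lie to the right for most receptors.

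Per kilobase of the deposited gene length, Cxcl12 was the most abundant member in all 4 groups. Its mean level per kilobase was 2218.5 in NCD-fed WT, 1453 in SSD-fed WT, 1577 in NCD-fed Klrk1-/- and 1594.5 in SSD-fed Klrk1-/- livers. Ccl9, a CC chemokine for Ccr1 that is found in mice, ranked next in each group, with 1191, 558, 974 and 324 in the same order. The third place differed, since Cxcl1 held it in NCD-fed WT livers at 707, Ccl6 in SSD-fed WT livers at 348, and Ccl27a in both Klrk1-/- groups at 350.5 and 314. Ccl27a is a skin-type chemokine whose exons overlap Il11ra1 on the other strand, and Il11ra1 had mean normalized counts of 518 to 1169. How the counting treated strand is not stated, so reads of Ccl27a and Il11ra1 may not be told apart. Receptors were scarcer: Cxcr4 had a mean of 56.8 and Ccr2 of 34.8 per kilobase in SSD-fed WT livers.

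In WT livers, SSD raised the ligands Ccl2, Ccl6, Ccl22, Cxcl9, Cxcl10 and Cxcl16 and the receptors Ccr2, Ccr7, Cxcr3 and Cxcr4, and lowered Cxcl12, Ccl9 and Cxcl13. Of 30 members that could be tested, 10 rose and 3 fell at an adjusted p under 0.05, against 17.3% of all 13091 genes tested that rose and 17.6% that fell. The median log2 fold change was 0.67 over the members and -0.002 over all genes tested. Of the 7 receptors tested, 4 rose and the others did not pass. Ligands had a median of 0.65, with 6 higher and 3 lower of 19. Of the 30, 5 passed the minimum level only through 1 diet group: Ccl22, Ccr1, Ccr7 and Cxcr3 through the SSD-fed mice, where they are high, and Cxcl13 through the NCD-fed mice. Without SSD-fed WT mouse 1, 8 members rose and 3 fell of 29 tested, against 16.9% and 17.4% of all genes in that fit, and Ccl2 (adjusted p = 0.0534) and Cxcr3 (adjusted p = 0.0685) no longer passed.

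In Klrk1-/- livers the diet changed 5 members, all of them ligands. Of 27 tested, Ccl6 and Ccl21a rose and Ccl9, Cxcl1 and Cxcl13 fell, against 13.4% of all 12904 genes tested that rose and 16% that fell. No receptor passed among the 6 tested, and the median log2 fold change of the receptors was 0.18. The same 5 members passed when NCD-fed Klrk1-/- mice 2 and 3 were left out, but with all 4 groups in 1 model only Ccl9 and Cxcl13 passed. With 3 and 4 mice this comparison is smaller than that in WT mice, and a difference in the number of calls is not a test of a difference between genotypes.

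On SSD, Klrk1-/- livers stood lower than WT livers for most members, but few differences passed. Of 31 members tested, 25 had a log2 fold change below 0, with a median of -0.58 against -0.001 over all genes. Cxcr4 and Cxcl10 passed, both lower, against 1.68% of the 13116 genes tested that were lower; no member passed as higher, against 1.22%. At an unadjusted p under 0.05 there were 13 members, against 22.9% of all genes tested. All 8 receptors tested were below 0, but Ccr1 and Xcr1 among them, as well as Ccl22 and Cxcl2, reached the minimum level only through the higher SSD-fed WT group, and Cxcl13 only through the Klrk1-/- group. Without SSD-fed WT mouse 1, 6 of 28 members passed, all lower, against 3.26% of all genes that were lower in that fit: Ccl2, Ccl6, Ccr2, Cxcl1, Cxcl10 and Cxcr4. DESeq2 called 9 members lower on the recovered reads, against 5.23% of all genes. The comparison shares the SSD-fed WT mice with the diet comparison in WT mice, so the same libraries stand behind both.

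The diet response was also compared between genotypes directly, by the interaction of diet and genotype over all 16 mice. Of 29 members tested, Cxcl12 alone passed, with a positive term, against 0.321% of the 13068 genes tested with a positive term and 0.559% with a negative one. None of the 6 receptors tested passed. On NCD, Ccl25 was higher and Cxcl12 lower in Klrk1-/- than in WT livers of 27 members tested, against 6.41% of the 12845 genes tested that were higher and 6.66% that were lower. Neither passed without NCD-fed Klrk1-/- mice 2 and 3, where 1.87% of all genes passed in either direction.

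**Figure D2:**
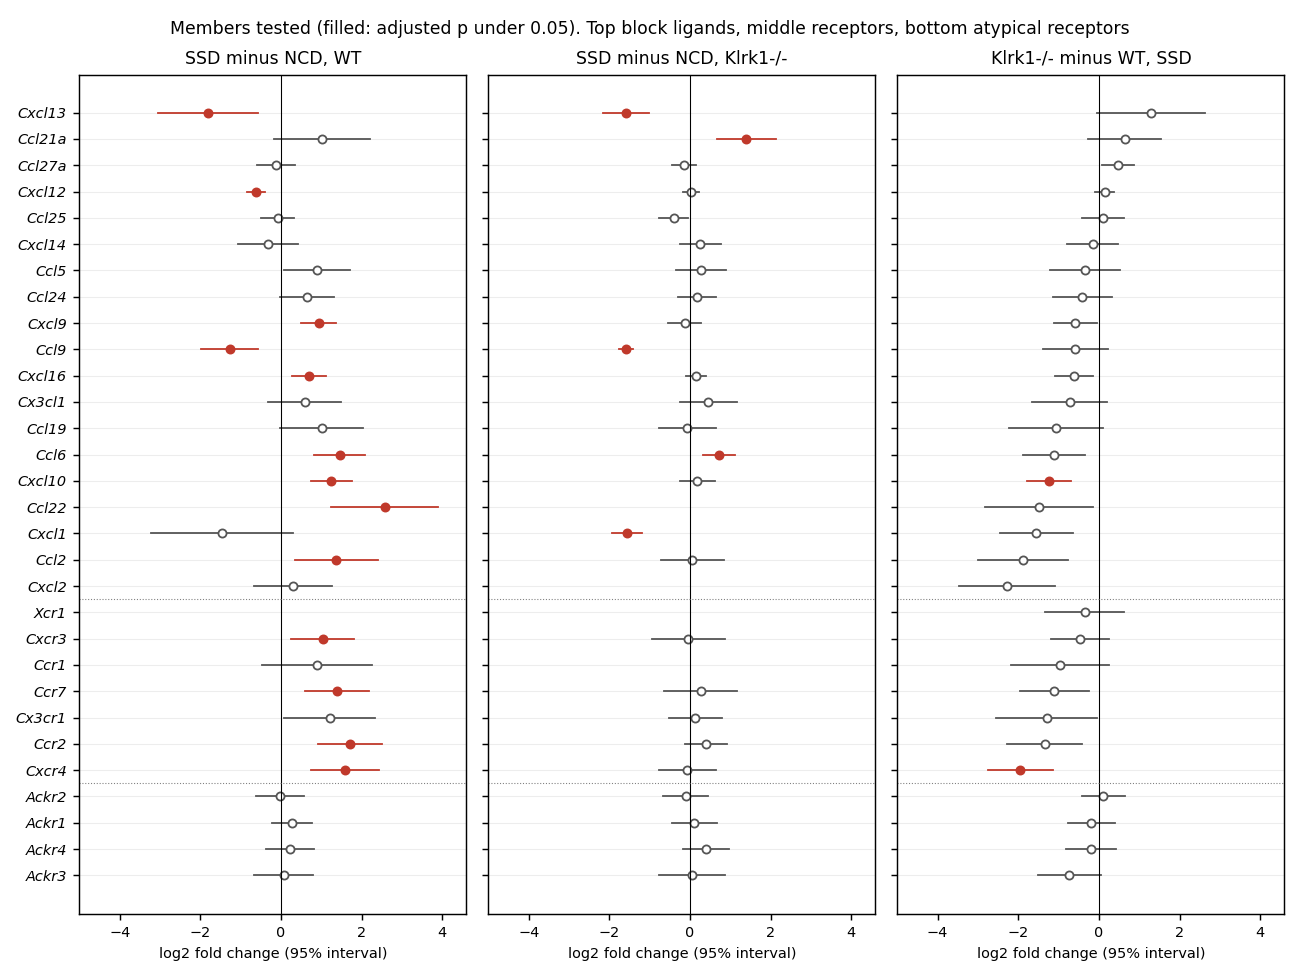
Log2 fold change of each tested member with its 95% interval (horizontal axis) for SSD against NCD in WT mice, SSD against NCD in Klrk1-/- mice, and Klrk1-/- against WT mice on SSD. Filled red points passed at an adjusted p under 0.05; in WT mice the 6 receptors drawn lie above 0, of which Ccr1, Ccr7 and Cxcr3 were tested only through their SSD-fed group.

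Ccl2 (chr11:81926397-81928279, GRCm39) is the main ligand of Ccr2, the receptor that lets inflammatory monocytes leave the bone marrow and enter tissue. Ccl2 measured 44.6, 11.1, 30.0 and 29.8 in the NCD-fed WT mice and 190.0, 84.5, 40.9, 40.9 and 56.3 in the SSD-fed WT mice. It measured 17.2, 19.9, 13.7 and 18.5 in NCD-fed and 24.1, 24.9 and 9.43 in SSD-fed Klrk1-/- mice. Every SSD-fed Klrk1-/- mouse was below every SSD-fed WT mouse, while the WT diet groups overlapped. Ccl2 rose with SSD in WT livers by 1.37 ± 0.47 (log2 fold change ± SE, adjusted p = 0.0398), and the log2 fold change in Klrk1-/- livers was 0.06 ± 0.36 (adjusted p = 0.916). The interaction of -1.31 ± 0.66 did not pass (adjusted p = 0.315). The call in WT livers was lost without any of 5 of the 9 mice, namely NCD-fed mice 2, 3 and 5 and SSD-fed mice 1 and 2, with adjusted p from 0.00675 to 0.117 over all alternatives. Between genotypes on SSD the log2 fold change was -1.88 ± 0.51 (adjusted p = 0.0745), which did not pass; DESeq2 gave an adjusted p of 0.00319, and leaving out SSD-fed WT mouse 1 gave 0.0383.

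Ccr2 (chr9:123901987-123913594) measured 37.4, 23.2, 35.2 and 35.3 in NCD-fed WT mice and 284.3, 114.9, 99.0, 68.4 and 65.3 in SSD-fed WT mice, with no overlap. In Klrk1-/- mice it measured 34.5, 39.8, 24.9 and 28.3 on NCD and 31.9, 47.4 and 48.0 on SSD, where the diet groups overlapped. For both Ccl2 and Ccr2 the SSD-fed WT mice had the highest group mean, 82.5 ± 62.7 for the ligand and 126 ± 90.7 for the receptor (SD, n = 5). Ccr2 rose in WT livers by 1.71 ± 0.37 (adjusted p = 0.00425), and by 1.36 without mouse 1 (adjusted p = 0.000781). The log2 fold change in Klrk1-/- livers was 0.40 ± 0.24 (adjusted p = 0.23). Between genotypes on SSD it was -1.35 ± 0.42 (adjusted p = 0.103; 0.0364 without SSD-fed WT mouse 1; DESeq2, 0.0103), and the interaction was -1.31 ± 0.50 (adjusted p = 0.195).

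The other ligands of Ccr2 were scarce. Ccl12 had 0 reads in all 7 Klrk1-/- mice and measured 5.98, 2.54, 2.86, 2.67 and 4.08 in SSD-fed WT mice, with 2 of the 4 NCD-fed WT mice also at 0. It lay under the minimum mean for testing; with no minimum, its log2 fold change between genotypes on SSD had an adjusted p of 0.011. Ccl7 measured 32.6, 10.1, 6.66, 7.995 and 5.72 in SSD-fed WT mice and 0, 2.41 and 3.43 in SSD-fed Klrk1-/- mice, and did not pass without a minimum (adjusted p = 0.096). Ccl2, Ccl7 and Ccl12 were each higher in every SSD-fed WT mouse than in any SSD-fed Klrk1-/- mouse. Of the 13116 genes tested, which leave out Ccl7 and Ccl12, 8.74% showed this separation in this direction. Of the 31 members tested, 9 showed it in this direction and 1 in the other. For Ccl12 the separation rests on 3 reads in 3 of the 5 WT mice.

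**Figure D3:**
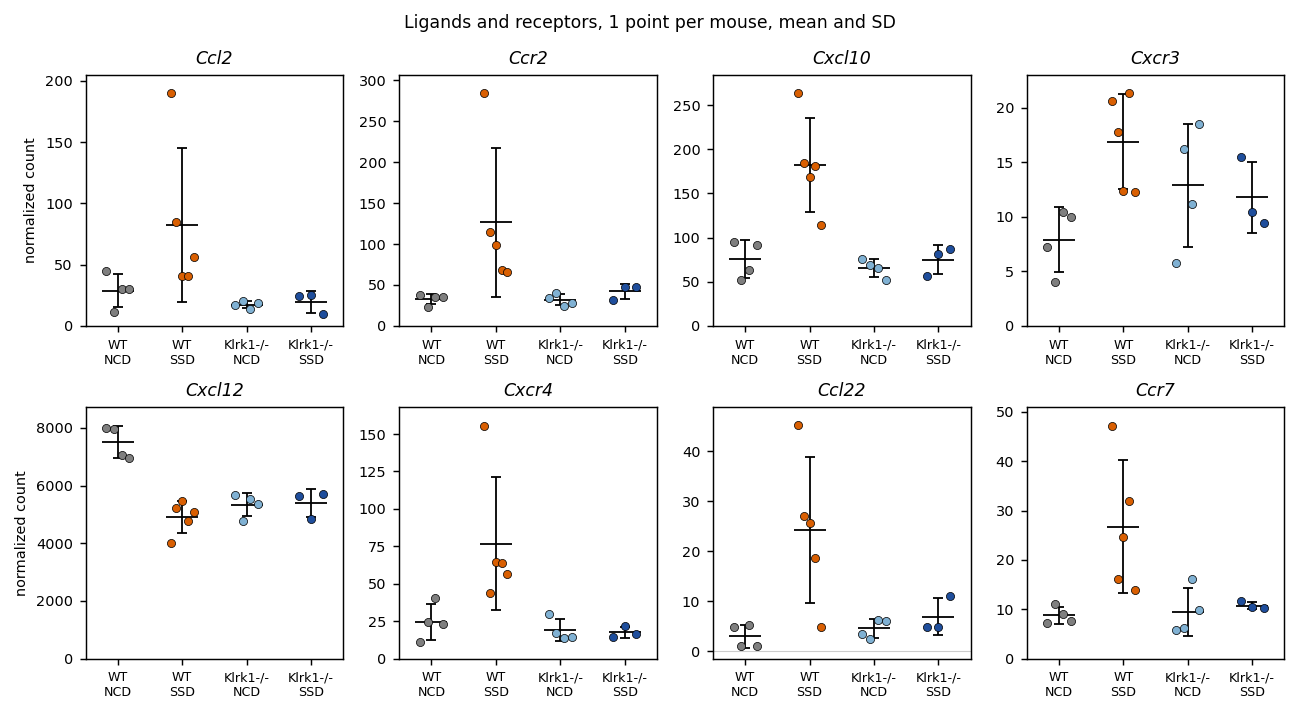
Normalized counts (vertical axis, from 0) of 4 ligands and 4 receptors in each mouse, with the group mean and SD as black bars. For Ccl2, Ccr2, Cxcl10, Cxcr4, Ccl22 and Ccr7 the SSD-fed WT mice are the high group and mouse 1 is the highest point, up to 284.3 for Ccr2, while Cxcl12 is high in the NCD-fed WT mice only.

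Cxcl1 and Cxcl2 are neutrophil attractants that share the receptor Cxcr2 and lie next to each other on chromosome 5 (Cxcl1 at chr5:91039100-91040974 and Cxcl2 at chr5:91051730-91053797, GRCm39). Cxcl1 measured 1556, 65.4, 518 and 1856 in NCD-fed WT mice, a spread that no other group showed. It measured 452, 314, 168, 129 and 115 in SSD-fed WT mice. The Klrk1-/- mice had 161, 240.2, 229 and 203 on NCD and 58.0, 85.1 and 66.0 on SSD, and these groups did not overlap. With SSD, Cxcl1 in Klrk1-/- livers fell by 1.57 ± 0.17 on the log2 scale (adjusted p = 5.61e-05), a call lost with all 4 groups in 1 model (adjusted p = 0.153). In WT livers the log2 fold change was of like size, -1.45, but with an SE of 0.81 (adjusted p = 0.182). That value depends on NCD-fed WT mouse 2: without it the log2 fold change was -2.48 (adjusted p = 0.00456). On the recovered reads with all mice, the count tests called Cxcl1 lower with SSD in WT livers, with log2 fold changes of -2.08 in both and adjusted p of 0.0338 (edgeR) and 0.0381 (DESeq2). On NCD the log2 fold change between Klrk1-/- and WT livers was -1.44 ± 0.76 (adjusted p = 0.217), and it was called lower by edgeR (adjusted p = 0.0377), by DESeq2 (adjusted p = 0.0454) and by limma without NCD-fed WT mouse 2 (-2.47, adjusted p = 0.00316). Between genotypes on SSD the log2 fold change was -1.56 ± 0.41 (adjusted p = 0.0699; 0.0347 without SSD-fed WT mouse 1; DESeq2, 0.000864). The NCD-fed WT mice had the highest group mean of Cxcl1, 999 ± 846 (SD, n = 4), followed by 236 ± 145 in SSD-fed WT and 208 ± 35.2 in NCD-fed Klrk1-/- mice, whereas for Ccl2 the SSD-fed WT mean was the highest.

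Cxcl2 was far scarcer, at 12.1, 8.06, 18.3 and 13.2 in NCD-fed WT and 39.2, 17.7, 17.1, 8.88 and 8.17 in SSD-fed WT mice. It measured 9.19, 8.71, 6.22 and 9.84 in NCD-fed and 1.93, 4.02 and 1.71 in SSD-fed Klrk1-/- mice. The SSD-fed Klrk1-/- mice were the lowest of all 16, and 2 of the 3 were at or below 3 reads. The difference between genotypes on SSD was -2.28 ± 0.53 (adjusted p = 0.0522), which missed the threshold; DESeq2 gave 0.00541, and without SSD-fed WT mouse 1 the gene fell under the minimum mean. With SSD in Klrk1-/- livers Cxcl2 was also under the minimum; without one, its log2 fold change was -1.46 ± 0.37 (adjusted p = 0.017). The interaction for Cxcl2, -1.76 ± 0.625, did not pass (adjusted p = 0.174). Cxcl5, another ligand of Cxcr2, was detected above 3 reads in few mice and reached 31.9 in SSD-fed WT mouse 1 alone. The receptor itself was near the floor: Cxcr2 had means of 5.02 ± 6.24 in NCD-fed WT, 5.35 ± 2.87 in SSD-fed WT, 3.98 ± 1.28 in NCD-fed Klrk1-/- and 3.93 ± 2.61 in SSD-fed Klrk1-/- mice (SD), too few reads to be tested. The highest single value, 14.4, was that of NCD-fed WT mouse 5, which also had the highest Cxcl1. Of 7 neutrophil markers, 3 could be tested and none passed in WT or Klrk1-/- mice for the diet (S100a9 passed as lower in WT without SSD-fed mouse 1, adjusted p = 0.0473); Ly6g had 0 reads in every mouse.

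Cxcl9 and Cxcl10, induced by interferon, are ligands of Cxcr3 on T cells and NK cells, and they are neighbours on chromosome 5 (Cxcl9 at chr5:92469206-92475938, Cxcl10 at chr5:92494497-92496748). Cxcl10 measured 95.3, 52.4, 63.9 and 91.6 in NCD-fed WT mice and 263.7, 185.0, 168, 181 and 114.3 in SSD-fed WT mice. The Klrk1-/- mice measured 75.8, 68.4, 65.9 and 51.7 on NCD and 56.01, 81.9 and 87.4 on SSD. The SSD-fed WT mice were above all other 11 mice. Cxcl10 rose in WT livers by 1.25 ± 0.24 (adjusted p = 0.00205) and was lower in Klrk1-/- livers on SSD by a log2 fold change of -1.25 ± 0.25 (adjusted p = 0.0293). In Klrk1-/- livers the log2 fold change with SSD was 0.18 ± 0.20 (adjusted p = 0.52), and the interaction of -1.07 ± 0.34 did not pass (adjusted p = 0.132). The call between genotypes was lost when any of 6 of the 8 mice was left out, with an adjusted p of up to 0.14, and kept without SSD-fed WT mouse 1 (0.0133) or 5. Against a later annotation (GENCODE M39), Cxcl10 overlaps exons of Art3 on the other strand, but Art3 had mean normalized counts of only 32.3 to 40.8.

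Cxcl9 measured 166, 189, 149.9 and 192 in NCD-fed WT and 464, 364, 404, 279.8 and 214 in SSD-fed WT mice. The diet groups of the WT mice did not overlap, and Cxcl9 rose by 0.94 ± 0.20 (adjusted p = 0.00398). Means of the Klrk1-/- groups were 248 ± 51.2 on NCD and 226 ± 51.8 on SSD (SD), a log2 fold change of -0.13 ± 0.18 (adjusted p = 0.622). Between genotypes on SSD the value was -0.58 ± 0.24 (adjusted p = 0.186). The replicate block, which left out SSD-fed WT mice 4 and 5, called Cxcl9 lower in Klrk1-/- livers. On NCD edgeR, DESeq2 and the replicate block, but not the main limma fit, called Cxcl9 higher in Klrk1-/- livers. The interaction, -1.07 ± 0.30, had an adjusted p of 0.0958, the smallest among members after Cxcl12, and DESeq2 called it negative. Cxcr3 (chrX:100775141-100777875) moved with its ligands at low level, from 7.24, 4.03, 10.4 and 9.93 in NCD-fed WT to 20.6, 17.7, 12.4, 21.3 and 12.3 in SSD-fed WT mice. It rose by 1.04 ± 0.36 (adjusted p = 0.0408), a call lost without any of 5 of the 9 mice (NCD-fed 1 and 2, SSD-fed 1, 2 and 4). In Klrk1-/- mice Cxcr3 lay between 5.74 and 18.5 on NCD and between 9.43 and 15.5 on SSD, a log2 fold change of -0.04 ± 0.42 (adjusted p = 0.95). Its interaction of -1.08 ± 0.54 did not pass (adjusted p = 0.313).

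Cxcl12, a homeostatic chemokine of stromal and endothelial cells, and its signalling receptor Cxcr4 went in opposite directions in WT livers. Cxcl12 (chr6:117145496-117158328) measured 8013, 7968, 7070.1 and 6971 in NCD-fed WT mice and 4020, 5223, 5470, 4784 and 5078 in SSD-fed WT mice. Levels in Klrk1-/- mice were 5678, 4758, 5547 and 5357 on NCD and 5650, 4839 and 5694 on SSD. The NCD-fed WT mice were above all others, and the other 3 groups overlapped. Cxcl12 fell in WT livers by 0.62 ± 0.10 on the log2 scale (adjusted p = 0.000895), while its log2 fold change in Klrk1-/- livers was 0.02 ± 0.09 (adjusted p = 0.916). On NCD it was lower in Klrk1-/- than in WT livers, with a log2 fold change of -0.49 ± 0.09 (adjusted p = 0.00543), and this held in each of the 8 fits without a single mouse. Without both NCD-fed Klrk1-/- mice 2 and 3 it was -0.44 ± 0.12 and did not pass (adjusted p = 0.0893). On SSD the genotypes differed by 0.14 ± 0.11 (95% interval -0.11 to 0.38, adjusted p = 0.488). The interaction was 0.63 ± 0.14 (adjusted p = 0.0426); it passed in 6 of the 16 fits that leave out a mouse and in 4 of 9 other settings, with adjusted p from 0.00235 to 0.153. Without NCD-fed Klrk1-/- mice 2 and 3 it was 0.58 ± 0.16 and did not pass (adjusted p = 0.213).

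Cxcr4 (chr1:128515936-128520030) measured 10.9, 24.2, 40.4 and 23.2 in NCD-fed WT and 155, 43.9, 64.7, 64.0 and 56.3 in SSD-fed WT mice. It measured 29.9, 17.4, 13.7 and 14.8 in NCD-fed and 14.5, 21.7 and 16.3 in SSD-fed Klrk1-/- mice. Each SSD-fed WT mouse was above each of the other 11. Cxcr4 rose in WT livers by 1.59 ± 0.39 (adjusted p = 0.00893; 0.00907 without mouse 1), with a log2 fold change of -0.06 ± 0.33 in Klrk1-/- livers (adjusted p = 0.906). On SSD it was lower in Klrk1-/- livers, with a log2 fold change of -1.95 ± 0.36 (adjusted p = 0.024; 0.00313 without SSD-fed WT mouse 1). This call was lost without SSD-fed WT mouse 3 or any of the 3 SSD-fed Klrk1-/- mice, with an adjusted p of up to 0.121. The interaction of -1.65 ± 0.55 did not pass (adjusted p = 0.149). Ackr3, the atypical receptor that scavenges Cxcl12, had means of 25.96 ± 7.97 in NCD-fed WT, 28.0 ± 10.6 in SSD-fed WT, 16.02 ± 6.88 in NCD-fed Klrk1-/- and 15.4 ± 1.84 in SSD-fed Klrk1-/- livers (SD). Its log2 fold change between genotypes was -0.72 ± 0.36 on NCD (adjusted p = 0.192) and -0.73 ± 0.35 on SSD (adjusted p = 0.246). The SSD response of Ackr3 was 0.06 ± 0.34 in WT livers (95% interval -0.67 to 0.80).

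**Figure D4:**
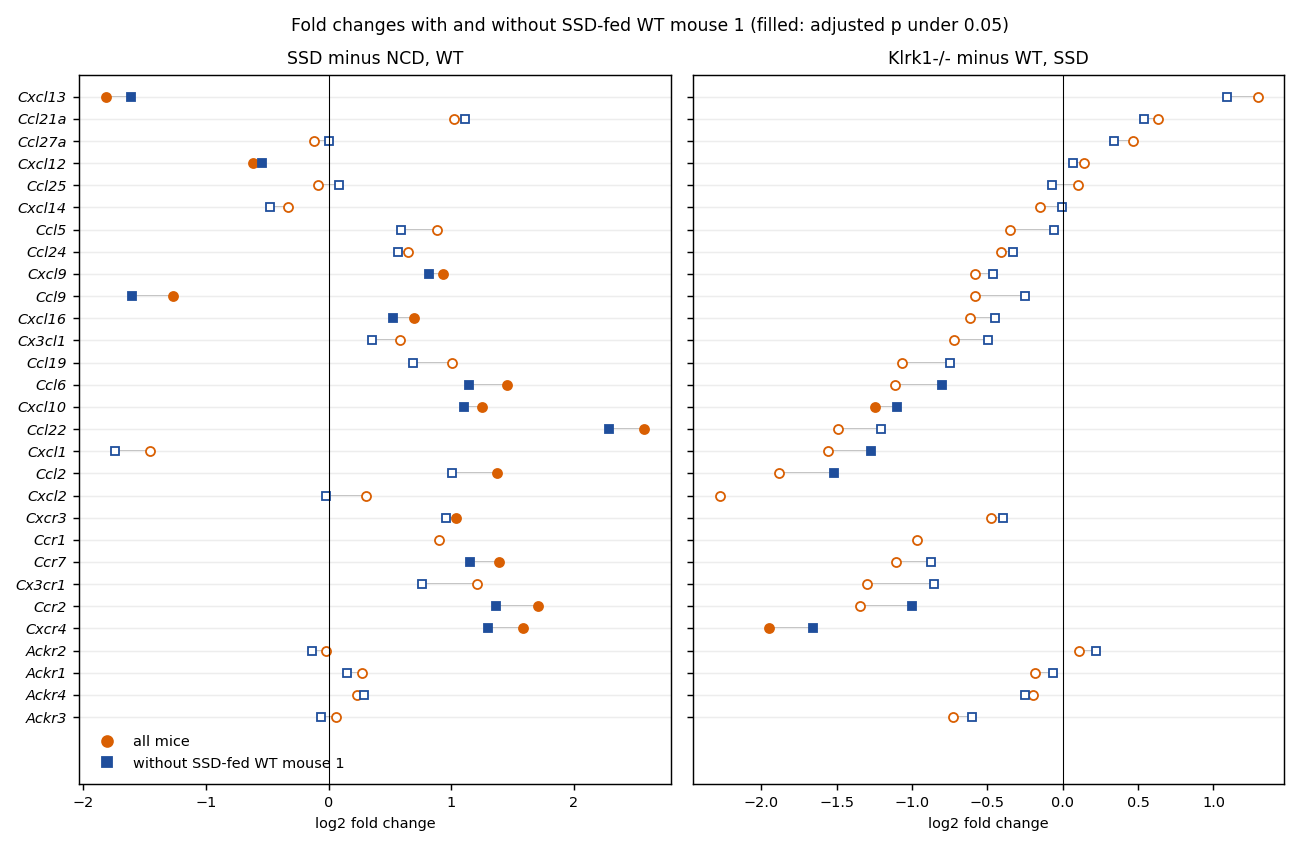
Log2 fold change (horizontal axis) of each member with all mice (circles) and without SSD-fed WT mouse 1 (squares), for SSD against NCD in WT mice and for Klrk1-/- against WT mice on SSD; filled symbols passed at an adjusted p under 0.05. The values move toward 0 for most members above 0 on the left, and 6 squares are filled on the right against 2 circles.

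Ccr7, the receptor that brings dendritic cells and naive T cells to lymph nodes, measured 7.24, 11.1, 9.12 and 7.72 in NCD-fed WT and 47.2, 16.1, 24.7, 32.0 and 13.9 in SSD-fed WT mice. It rose by 1.39 ± 0.37 (adjusted p = 0.0129), a call lost with the replicate block, which left out SSD-fed WT mouse 4 (adjusted p = 0.0737). In Klrk1-/- mice its means were 9.49 ± 4.81 on NCD and 10.8 ± 0.712 on SSD, a log2 fold change of 0.27 ± 0.41 (adjusted p = 0.661). Ccr7 did not pass in the interaction (-1.12 ± 0.55, adjusted p = 0.3). Its ligand Ccl19 did not pass with SSD in WT livers (95% interval of the log2 fold change -0.02 to 2.04, adjusted p = 0.118), though DESeq2 and scaling to the same total called it higher, and without SSD-fed WT mouse 1 it was 0.69 ± 0.41 (adjusted p = 0.217); it was -0.06 ± 0.32 in Klrk1-/- livers (adjusted p = 0.905). The other ligand, Ccl21a, behaved differently from Ccl19 in the calls: it measured 12.6, 18.7, 11.2 and 14.8 in NCD-fed and 33.8, 65.9 and 25.7 in SSD-fed Klrk1-/- mice. Ccl21a rose there by 1.40 ± 0.34 (adjusted p = 0.0092), a call lost with all 4 groups in 1 model (adjusted p = 0.0734). In WT livers its log2 fold change was 1.02 ± 0.55 (adjusted p = 0.168), and the interaction, 0.38 ± 0.73, did not pass (adjusted p = 0.815). Ccl21b and Ccl21d, near-identical copies of Ccl21a, had 0 reads in every mouse, and reads could have been split or discarded among them. Ackr4, which scavenges Ccl19, Ccl21a and Ccl25, had means of 29.1 ± 9.10, 34.1 ± 9.02, 21.8 ± 3.13 and 29.7 ± 8.20 in the groups in the order NCD-fed WT, SSD-fed WT, NCD-fed Klrk1-/- and SSD-fed Klrk1-/-, and did not pass in any comparison. Its exons overlap those of Acad11 on the other strand, a gene with mean normalized counts of 3120 to 6550.

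Ccl22, made by dendritic cells and macrophages for Ccr4 on regulatory and helper T cells, measured 4.82, 5.21 and 1.10 in NCD-fed WT mice 1, 3 and 5 and had 1 read in mouse 2. It measured 45.2, 27.0, 25.7, 18.7 and 4.90 in SSD-fed WT mice, of which mouse 5 lay within the NCD range. Ccl22 rose by 2.57 ± 0.61 (adjusted p = 0.0074), and by 2.29 without mouse 1 (adjusted p = 0.0127). It was tested only through the SSD-fed group, and its log2 fold change ran from 1.29 with a pseudocount of 10 to 3.06 with DESeq2. In Klrk1-/- mice it lay between 2.49 and 6.22 on NCD and between 4.82 and 11.1 on SSD, under the minimum for testing. On SSD the log2 fold change between genotypes was -1.49 ± 0.60 (adjusted p = 0.182), and the interaction of -2.09 ± 0.84 did not pass (adjusted p = 0.219). Ccr4 had at most 3.21 normalized counts in any mouse, and Ccl17, the other ligand of Ccr4, at most 3.55. The summed level of 5 dendritic cell markers (Flt3, Clec9a, Zbtb46, Siglech and Cd209a) was 154 to 262 in NCD-fed WT, 292 to 446 in SSD-fed WT, 237 to 345 in NCD-fed Klrk1-/- and 289 to 341 in SSD-fed Klrk1-/- mice. Of the 5, 2 rose in WT livers, against 17.3% of all genes tested, and 1 without mouse 1, against 16.9%. The part of dendritic cells in the results for Ccl22 and Ccr7 was not tested.

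Ccl6 and Ccl9 are mouse CC chemokines that bind Ccr1 and lie side by side on chromosome 11 (Ccl9 at chr11:83463745-83469462, Ccl6 at chr11:83478708-83483913), yet SSD moved them in opposite directions. Ccl6 measured 107.3, 96.7, 95.2 and 99.3 in NCD-fed WT and 648, 254, 203, 257 and 179.6 in SSD-fed WT mice. Among Klrk1-/- mice it measured 96.5, 78.4, 77.1 and 57.8 on NCD and 142, 106 and 134 on SSD. SSD-fed mice were above NCD-fed mice in both genotypes without overlap. Ccl6 rose by 1.45 ± 0.30 in WT (adjusted p = 0.00313) and by 0.72 ± 0.18 in Klrk1-/- livers (adjusted p = 0.0126). The call in Klrk1-/- livers was lost without SSD-fed mouse 1 or 3 and with all 4 groups in 1 model. The difference between the responses of the genotypes was -0.73 ± 0.40 (adjusted p = 0.357), and -0.42 ± 0.23 without SSD-fed WT mouse 1 (adjusted p = 0.375). On SSD the log2 fold change between genotypes was -1.11 ± 0.35 (adjusted p = 0.106; 0.0167 without SSD-fed WT mouse 1).

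Ccl9 measured 2677, 1739, 1825 and 1868 in NCD-fed WT and 2068, 633, 622, 906 and 522 in SSD-fed WT mice. The values of Klrk1-/- mice were 1713, 1539, 1688 and 1690.1 on NCD and 536, 570.2 and 548 on SSD. Apart from SSD-fed WT mouse 1, every SSD-fed mouse was below every NCD-fed mouse. Ccl9 fell by 1.27 ± 0.33 on the log2 scale in WT livers (adjusted p = 0.011) and by 1.59 ± 0.08 in Klrk1-/- livers (adjusted p = 1.05e-07). Without mouse 1 the log2 fold change in WT livers was -1.60 (adjusted p = 2.18e-05). The interaction was -0.31 ± 0.41 (95% interval -1.18 to 0.55, adjusted p = 0.719), and 0.02 ± 0.21 without SSD-fed WT mouse 1 (adjusted p = 0.978). Ccr1, their receptor on neutrophils and macrophages, had means of 6.75 ± 4.56, 13.1 ± 9.88, 6.16 ± 4.63 and 5.18 ± 1.53 in NCD-fed WT, SSD-fed WT, NCD-fed Klrk1-/- and SSD-fed Klrk1-/- livers, with no call in the comparisons that could test it.

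**Figure D5:**
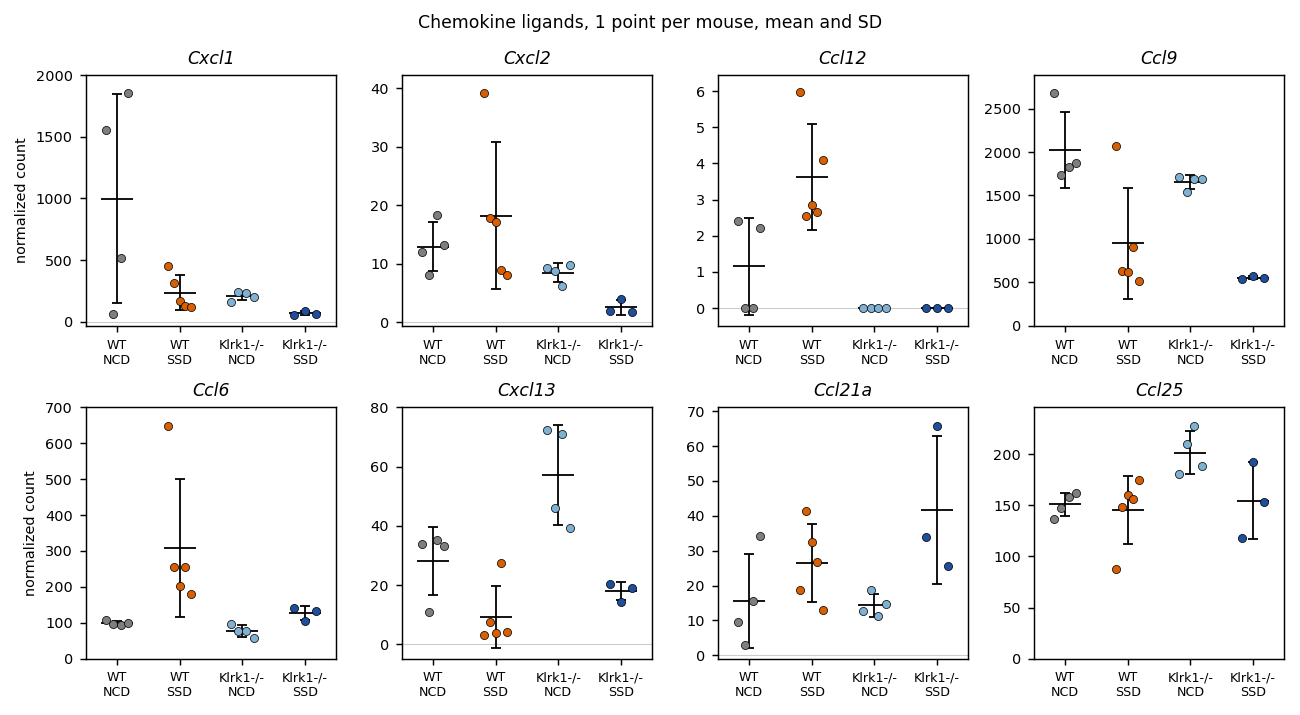
Normalized counts (vertical axis, from 0) of 8 chemokine ligands in each mouse, with the group mean and SD as black bars. Ccl9 and Cxcl13 are low on SSD in both genotypes, Ccl6 is high on SSD in both, Cxcl1 spreads from 65.4 to 1856 in NCD-fed WT mice, and Ccl12 is at 0 in all 7 Klrk1-/- mice.

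Cxcl13, which attracts B cells through Cxcr5, fell with SSD in both genotypes. It measured 33.8, 11.1, 35.2 and 33.1 in NCD-fed WT and 3.32, 7.60, 3.81, 27.5 and 4.08 in SSD-fed WT mice. It measured 72.4, 46.0, 70.9 and 39.4 in NCD-fed and 20.3, 14.5 and 18.9 in SSD-fed Klrk1-/- mice, with no overlap. Cxcl13 fell by 1.81 ± 0.57 on the log2 scale in WT (adjusted p = 0.0283) and by 1.59 ± 0.26 in Klrk1-/- livers (adjusted p = 0.00104). The WT call was lost without NCD-fed WT mouse 1, 3 or 5 or SSD-fed WT mouse 3, and with edgeR. The Klrk1-/- means were above the WT means on both diets, 57.2 against 28.3 on NCD and 17.9 against 9.27 on SSD, but neither difference passed (adjusted p = 0.0593 and 0.233). On NCD, however, Cxcl13 was called higher in Klrk1-/- livers with a pseudocount of 10, by DESeq2 and with the replicate block. Cxcr5 stayed between 0.966 and 11.1 in all mice and was not tested; its exons overlap those of Bcl9l, a gene on the other strand with mean normalized counts of 947 to 1239.

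Cxcl16, a membrane-bound chemokine that holds Cxcr6-bearing T cells and NKT cells in the liver, measured 179.7, 209, 194 and 195.3 in NCD-fed WT and 500.2, 303, 317, 305 and 212 in SSD-fed WT mice. It rose by 0.69 ± 0.19 (adjusted p = 0.0152), and by 0.53 without mouse 1 (adjusted p = 0.0102). In Klrk1-/- livers the log2 fold change was 0.15 ± 0.11 (adjusted p = 0.328), and between genotypes on SSD it was -0.61 ± 0.22 (adjusted p = 0.135). The interaction of -0.54 ± 0.25 did not pass (adjusted p = 0.273). DESeq2, the model of all 4 groups and the replicate block, the last without SSD-fed WT mice 4 and 5, called Cxcl16 lower in Klrk1-/- livers on SSD. Its receptor was scarce. Cxcr6 had means of 6.58 ± 2.32, 9.34 ± 3.69, 8.57 ± 3.04 and 7.78 ± 5.91 in NCD-fed WT, SSD-fed WT, NCD-fed Klrk1-/- and SSD-fed Klrk1-/- livers (SD), below the minimum for testing. Exons of Cxcl16 overlap Med11 on the other strand, whose means lay between 211 and 244.

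Ccl25, known from the thymus and gut as the ligand of Ccr9, was the only member higher in Klrk1-/- than in WT livers on NCD by the test. It measured 136, 147, 158 and 162 in NCD-fed WT and 180.4, 210.3, 228 and 188 in NCD-fed Klrk1-/- mice, with no overlap. The log2 fold change was 0.41 ± 0.12 (adjusted p = 0.0398). This call was lost without any of 6 of the 8 mice, with an adjusted p of up to 0.135, and without NCD-fed Klrk1-/- mice 2 and 3 the log2 fold change was 0.29 ± 0.15 (adjusted p = 0.393). On SSD the means were 146 ± 33.7 in WT and 155 ± 37.5 in Klrk1-/- livers, a log2 fold change of 0.10 ± 0.23 (adjusted p = 0.835). Ccl25 shares exonic sequence with Elavl1 on the other strand, a gene at 757 to 825 normalized counts in the group means. Ccr9 had 0.845 to 11.1 normalized counts and was not tested. Ccl27a, a ligand of Ccr10, measured 133, 99.7, 139.5 and 216 in NCD-fed WT and 90.3, 135, 144, 136 and 154 in SSD-fed WT mice. It measured 201, 195.4, 239 and 171 in NCD-fed and 168, 209 and 165 in SSD-fed Klrk1-/- mice. On SSD the genotypes did not overlap, but the log2 fold change of 0.47 ± 0.18 did not pass (adjusted p = 0.161).

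Members outside the named ones, described here after their values were seen, did not pass limma's test. Other settings made calls. DESeq2, the model of all 4 groups and scaling to the same total called Cx3cr1 and Ccl5 higher with SSD in WT livers. There, edgeR also called Cx3cr1 higher, and scaling to the same total called Ccl24 higher. DESeq2 called Cx3cr1 lower in Klrk1-/- livers on SSD. For Cx3cl1, a membrane-bound ligand, and its receptor Cx3cr1 of monocytes, the log2 fold changes with SSD in WT livers were 0.58 ± 0.42 (adjusted p = 0.3) and 1.21 ± 0.52 (adjusted p = 0.0889). Cx3cr1 measured 176 in SSD-fed WT mouse 1 and 16.3 to 54.3 in the other 4, and without mouse 1 its log2 fold change was 0.76 ± 0.37 (adjusted p = 0.132) and that of Cx3cl1 0.36 ± 0.39 (adjusted p = 0.515). For Ccl5, a chemokine of T cells, it was 0.89 ± 0.38 (adjusted p = 0.0878), 0.59 ± 0.31 without mouse 1 (adjusted p = 0.152), and in Klrk1-/- livers 0.28 ± 0.28 (adjusted p = 0.487). Ccl3 and Ccl4, inflammatory chemokines of macrophages, had their highest means in SSD-fed WT livers, 12.1 ± 5.95 and 12.6 ± 9.53, and were below the minimum for testing. Without a minimum, Ccl4 (log2 fold change 1.47 ± 0.49, adjusted p = 0.0471) and Xcl1 (1.30 ± 0.44, adjusted p = 0.048) passed with SSD in WT livers, and Ccl3 did not (adjusted p = 0.0525). Ccl24, the eosinophil chemokine of macrophages, had means between 39.8 and 66.3, while Ccr3, the receptor it binds on eosinophils, had means of 3.44 and 8.09 on NCD against 0.643 and 2.32 on SSD in WT and Klrk1-/- livers. Without a minimum mean, the adjusted p for Ccr3 was 0.0231 in WT and 0.0453 in Klrk1-/- livers, both lower on SSD, at levels near the floor. Cxcl14 had means between 36.9 and 67.0, and the atypical receptors Ackr1 and Ackr2 between 30.7 and 38.1 and between 47.1 and 55.2 normalized counts.

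Of the 60 members, 31 were tested in at least 1 comparison and 29 in none. Of the latter, 13 never had more than 3 reads in any mouse: Ccl1, Ccl11, Ccl21b, Ccl21d, Ccl26, Ccl27b, Ccr6, Ccr8, Ccr10, Cxcl3, Cxcl15, Cxcl17 and Cxcr1. Of these, 5 members, Ccl21b, Ccl21d, Cxcl3, Cxcl15 and Cxcl17, had 0 reads in all 16 mice. The remaining 16 (Ccl3, Ccl4, Ccl7, Ccl8, Ccl12, Ccl17, Ccl20, Ccl28, Ccr3, Ccr4, Ccr9, Cxcl5, Cxcr2, Cxcr5, Cxcr6 and Xcl1) had group means of 0 to 12.6 normalized counts. Xcl1 and its dendritic cell receptor Xcr1 thus lay at the limit of what this depth can compare, with Xcr1 tested on SSD only (log2 fold change -0.35 ± 0.44, adjusted p = 0.667). Ccl20, the ligand of Ccr6, was above 3 reads only in SSD-fed WT mouse 1.

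Genes that work downstream of chemokine receptors were counted from a list of 29 (G protein subunits, kinases, arrestins and regulators of G protein signalling), of which 28 were tested in most comparisons. With SSD in WT livers 18 of 28 rose and 1 fell, with a median of 0.71, against 17.3% and 17.6% of all genes; Dock2 and Vav1, which carry the receptor signal to the cytoskeleton, rose by 1.29 ± 0.29 and 1.19 ± 0.27. Without SSD-fed WT mouse 1 the counts were again 18 and 1, with a median of 0.53, against 16.9% and 17.4% of all genes. In Klrk1-/- livers 3 rose and 2 fell, with a median of 0.18, against 13.4% and 16% of all genes. On SSD, 26 of the 28 were below 0 in Klrk1-/- livers, and only Rgs1, an immune regulator of G protein signalling, passed, with a log2 fold change of -2.24 ± 0.45 (adjusted p = 0.0328), against 1.68% of all genes that were lower. Rgs1 was also lower on NCD (log2 fold change -1.22 ± 0.29, adjusted p = 0.0179), but did not pass there without NCD-fed Klrk1-/- mice 2 and 3 (adjusted p = 0.171). Grk5, a kinase that silences receptors, fell with SSD in both genotypes, by 0.73 ± 0.14 in WT and 1.77 ± 0.18 in Klrk1-/- livers on the log2 scale. Its interaction passed (-1.04 ± 0.23, adjusted p = 0.0438; 0.0357 without NCD-fed Klrk1-/- mice 2 and 3), but not without SSD-fed WT mouse 1 (-0.99 ± 0.24, adjusted p = 0.0546). On NCD Grk5 was higher in Klrk1-/- than in WT livers (log2 fold change 0.92 ± 0.17, adjusted p = 0.0057). On SSD its log2 fold change between genotypes was -0.12 ± 0.14 (adjusted p = 0.642).

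Of 21 genes known to act upstream of chemokine transcription, 17 were tested. Relb, an NF-kB subunit, rose with SSD by 1.54 ± 0.36 in WT and by 0.74 ± 0.21 in Klrk1-/- livers, and was lower in Klrk1-/- livers on SSD (log2 fold change -1.26 ± 0.25, adjusted p = 0.0306). Its rise in Klrk1-/- livers did not pass without NCD-fed mice 2 and 3 (adjusted p = 0.118). Without SSD-fed WT mouse 1, Nfkb2, another NF-kB subunit, was also lower on SSD (log2 fold change -0.44 ± 0.10, adjusted p = 0.0318). Il1r1, the interleukin-1 receptor, rose by 1.005 ± 0.21 and 0.50 ± 0.12. In all, 5 of the 17 rose and 2 fell in each genotype, against 17.3% and 17.6% of all genes in WT and 13.4% and 16% in Klrk1-/- livers, so the share that fell was not above that of all genes. The genes that fell were Traf3ip2, an adaptor of interleukin-17 receptors, and Zfp36, which destabilises cytokine transcripts. Il17a had 0 reads in all 16 mice, so its transcript was not detectable at this depth. Of 8 further genes of chemotaxis, 7 were tested. With SSD in WT livers 1 of the 7 rose, against 17.3% of all genes: Cmklr1, the receptor of chemerin, by 1.21 ± 0.19 (adjusted p = 0.00067). On SSD 1 of the 7 was lower in Klrk1-/- livers, against 1.68% of all genes, again Cmklr1 (log2 fold change -1.07 ± 0.19, adjusted p = 0.0214). The ligand of Cmklr1, Rarres2, had means of 10616 to 15179 and fell with SSD in Klrk1-/- livers by 0.40 ± 0.09 (adjusted p = 0.0076; 0.0537 without NCD-fed mice 2 and 3). It was the 1 gene of the 7 that fell there, against 16% of all genes. In WT livers its log2 fold change was -0.34 ± 0.14 (adjusted p = 0.0755; 0.0173 without SSD-fed mouse 1), and the interaction was -0.05 ± 0.18 (adjusted p = 0.903).

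The levels of myeloid marker genes are given beside those of the receptors. The summed level of 8 monocyte and macrophage markers was 2034 to 2728 in NCD-fed WT, 2965 to 10177 in SSD-fed WT, 1881 to 2193 in NCD-fed Klrk1-/- and 2164 to 2582 in SSD-fed Klrk1-/- mice, and the highest value was again that of SSD-fed WT mouse 1. All 8 were tested in WT mice and 5 rose, with a median of 1.502, against 17.3% of all genes that rose; on SSD all 8 were below 0 in Klrk1-/- livers, with a median of -1.18, and Cd68 passed (log2 fold change -1.36 ± 0.22, adjusted p = 0.0135), against 1.68% of all genes that were lower. Without SSD-fed WT mouse 1, 5 of the 8 passed as lower on SSD (Cd68, Gpnmb, Itgax, Trem2 and Lyz2), with a median of -0.82, against 3.26% of all genes. Cd68, a lysosomal protein of macrophages, also passed in the interaction (-1.57 ± 0.26, adjusted p = 0.0107; 0.00148 without SSD-fed WT mouse 1), but not without NCD-fed Klrk1-/- mice 2 and 3 (adjusted p = 0.0673). The 6 Kupffer cell markers summed to 3490.3 to 3833 in NCD-fed WT, 5096 to 11058 in SSD-fed WT, 3039 to 3757 in NCD-fed Klrk1-/- and 3789 to 4900.2 in SSD-fed Klrk1-/- mice. In WT livers 4 of the 6 rose, against 17.3% of all genes, and 2 of the 6 without SSD-fed mouse 1, against 16.9%. On SSD all 6 were below 0 in Klrk1-/- livers, with a median of -0.74. Marco, a scavenger receptor, passed there (log2 fold change -2.45 ± 0.39, adjusted p = 0.0138), and without SSD-fed WT mouse 1 Cd5l passed too (-0.82 ± 0.15, adjusted p = 0.0124). Marco was also lower on NCD (-0.77 ± 0.22, adjusted p = 0.0375; 0.0758 without NCD-fed Klrk1-/- mice 2 and 3), and its interaction did not pass (-1.68 ± 0.48, adjusted p = 0.0964). In Klrk1-/- livers 3 of the 8 monocyte and macrophage markers rose with SSD, namely Gpnmb (2.63 ± 0.54), Trem2 (1.42 ± 0.31) and Itgax (0.69 ± 0.24), with a median of 0.77 over the 8, and 2 of the 6 Kupffer cell markers rose, Cd5l (0.64 ± 0.11) and Adgre1 (0.42 ± 0.14), of which Adgre1 did not pass without NCD-fed mice 2 and 3 (adjusted p = 0.105), against 13.4% of all genes that rose there. No receptor passed in that comparison. The 8 T cell and NK cell markers summed to 142 to 160 in NCD-fed WT, 82.5 to 151 in SSD-fed WT, 142 to 214 in NCD-fed Klrk1-/- and 98.8 to 117 in SSD-fed Klrk1-/- mice. None of these 3 lists had a marker at 0 in every mouse of a group. B cell (4), endothelial (6), stellate (4) and cholangiocyte (4) lists had 0, 5, 2 and 0 genes higher in SSD-fed than NCD-fed WT livers and none that passed between genotypes on SSD. Without SSD-fed WT mouse 1, the counts for the diet were 0, 5, 0 and 0. Of all genes, 17.3% rose in WT livers with all mice and 16.9% without that mouse. In Klrk1-/- livers 0, 2, 2 and 1 genes of these lists rose with SSD, namely Pecam1 (0.44 ± 0.11) and Cdh5 (0.42 ± 0.10) of endothelium, Lrat (0.72 ± 0.16) and Reln (0.35 ± 0.09) of stellate cells and Epcam (adjusted p = 0.00889) of cholangiocytes. Without NCD-fed Klrk1-/- mice 2 and 3 these counts were 0, 1, 1 and 1. Of all genes, 13.4% rose in Klrk1-/- livers with all mice, and 1309 of the 12915 tested rose without mice 2 and 3. Of the 5 hepatocyte markers, 3 fell with SSD in WT livers, against 17.6% of all genes, and 4 in Klrk1-/- livers, against 16%. Without NCD-fed Klrk1-/- mice 2 and 3 the latter count was 2, against 1433 of the 12915 genes tested. Of the 8 T cell and NK cell markers, 4 were tested for the diet in each genotype, and 3 of the 4 had a log2 fold change above 0, with a median of 0.62 in WT and 0.21 in Klrk1-/- livers. None of those 3 passed, whereas Cd4 fell with SSD by 2.10 ± 0.21 on the log2 scale in WT (adjusted p = 2.62e-05) and by 1.92 ± 0.25 in Klrk1-/- livers (adjusted p = 0.000167). The part of these cells in the levels of Ccr2, Cxcr4, Ccr7 and Cxcr3 was not tested.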

How the data were processed

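RNA of whole livers from 16 mice was sequenced as single reads of 100 bases; the labels and the study's methods name different library kits, so whether strand was kept is not known here. The authors aligned reads with STAR to GRCm39, counted them per gene with FeatureCounts and deposited 1 normalized count per gene and mouse, a signal equal to the gene's count divided by 1 factor per mouse. All values (100%) were whole multiples of 1 read within 0.01, so reads were recovered. The deposited table also gives a gene length, used for levels per kilobase.

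Values were put on a log2 scale after adding 1. The limma trend test (version 3.58.1, R 4.3.3) was applied to genes whose mean reached 10 normalized counts in the mice compared, and p-values were adjusted over all such genes after Benjamini and Hochberg; adjusted p values in the text are limma's unless another tool is named. Fold changes on this scale understate those of low genes. The fit was tested on simulated data with 200 changed genes. Alternatives were pseudocounts of 0.5 and 10, no minimum and a minimum of 50, quantile normalization, equal library totals, the count tests of DESeq2 1.42.0 and edgeR 4.0.16 on recovered reads, a replicate block, all 4 groups in 1 model, fold limits of 1.5 and 2, and leaving out each mouse. In comparisons of 2 groups, the replicate block kept only mice whose number occurred in both groups. Leaving out NCD-fed Klrk1-/- mice 2 and 3 together, and refitting the pathway and marker lists without them or without SSD-fed WT mouse 1, were chosen after seeing the data. Members given per mouse were those that passed in at least 1 comparison, Cxcl1, Cxcl2, Ccl2, Cxcl10, Cxcr2 and Ccr2, the ligand or receptor partners of members that passed, and the 3 highest per kilobase in a group. The members and gene lists were chosen with earlier results of these data known. Nothing says how mice shared cages or days, so p-values measure the spread between these mice; floors cover counting error only. Exon overlaps were read from GENCODE M39. Of the members, 1 is not reported here by name or in the plots, though counts over members include it.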

Additional observations from a re-analysis of the deposited data

Results flagged for a closer look

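Of 82 groups of 4 or 5 mice looked at, 12 had 1 mouse far from the others. The limit used marks about 1 in 20 for independent, normally distributed values. Here it was applied to normalized counts without a log scale, and the groups share mice, so 12 of 82 cannot be set against that rate. In 5 of the 12 the mouse far from the others was SSD-fed WT mouse 1, which was high for Ccl6 (648.3, others 179.6 to 257), Ccl7 (32.55, others 5.72 to 10.1), Ccl9 (2067.9, others 522 to 906), Ccr2 (284.3, others 65.3 to 114.9) and Cxcr4 (155.4, others 43.9 to 64.7). Cxcl13 stood out in SSD-fed WT mouse 4 (27.54, others 3.32 to 7.60). Among NCD-fed WT mice, mouse 1 was high for Ccl9 (2677.3, others 1739 to 1868), mouse 2 was low for Ccr2 (23.16, others 35.2 to 37.4) and for Cxcl13 (11.08, others 33.1 to 35.2), and mouse 5 was high for Cxcr2 (14.35, others 1.30 to 2.41). Among NCD-fed Klrk1-/- mice, mouse 1 was high for Ackr4 (26.42, others 19.9 to 20.9) and mouse 2 was low for Ccl9 (1539.2, others 1688 to 1713). The response of Cxcl12 to SSD differed between genotypes, with an interaction of 0.63 on the log2 scale (limma, adjusted p = 0.0426), but not without NCD-fed Klrk1-/- mice 2 and 3 (0.58, limma, adjusted p = 0.213). The causes were not tested.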

How the results depend on the processing

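No member that passed changed direction under the alternatives run. Among members that did not pass, some values turned sign, for example these: without SSD-fed WT mouse 1, Cxcl2 with SSD in WT livers went from 0.30 to -0.02, Ccl25 there from -0.09 to 0.085, and the Ccl9 interaction from -0.31 to 0.02; without NCD-fed Klrk1-/- mice 2 and 3, Ccl19 with SSD in Klrk1-/- livers went from -0.06 to 0.26. For SSD in WT livers, 13 members passed, 9 to 18 over the alternatives and 11 to 16 when a mouse was left out. For SSD in Klrk1-/- livers, 5 passed, against 3 with a minimum of 50, 8 with scaling to the same total, 2 with all 4 groups in 1 model, and 4 to 6 without a mouse. Between genotypes on SSD, 2 passed, against 4 with no minimum, 9 with DESeq2, 7 with all 4 groups, and 0 to 6 without a mouse. On NCD, 2 passed, against 1 with no minimum, the same total or all 4 groups, 4 with edgeR, 5 with DESeq2, 0 with a fold limit of 1.5 or 2 or without NCD-fed Klrk1-/- mice 2 and 3, and 1 to 5 without a mouse. For the interaction, 1 passed, against 0 with no minimum, the same total, quantile normalization, edgeR, a fold limit of 2 or without those mice, 2 with DESeq2, and 0 to 2 without a mouse. The causes were not tested. Scaling to the same total moved the median of all genes by 0.34 (SSD in WT), 0.25 (SSD in Klrk1-/-) and -0.12 (genotype on SSD). Members with few reads, such as Cxcr2, Ccr4 and Ccl12, are limited by depth.

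Over all genes, 4568 passed for SSD in WT livers, against 7035 with the same total, 2974 with the replicate block, 2522 with a fold limit of 1.5 and 1179 with 2. For SSD in Klrk1-/- livers it was 3790, against 5634 with the same total, 1696 and 704 with the fold limits. Between genotypes on SSD it was 381, against 1220 with DESeq2, 710 with the block, 957 with all 4 groups and 151 with a fold limit of 2. On NCD it was 1679, against 744 and 219 with the fold limits, and for the interaction 115, against 460 with DESeq2, 42 with the block and 70 with a fold limit of 2.

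Replicate numbers were not taken to pair the mice in the main fits. Correlations of same-numbered deviations were -0.133 to 0.246, and some mice but not all correlated best with their own number. These correlations cannot decide whether same-numbered mice shared a cage or day. With the replicate block, 11 of 30 members passed for SSD in WT livers (22.7% of all genes), 5 of 27 in Klrk1-/- livers (24.9%), 11 of 31 between genotypes on SSD (5.41%), 5 of 26 on NCD (18.4%) and 0 of 29 for the interaction (0.321%). Except for the interaction, these fits kept only mice whose number occurred in both groups, so they do not use the same mice as the main fits. Between genotypes on SSD, SSD-fed WT mice 4 and 5 were left out, and for the diet in WT livers SSD-fed mouse 4. For the diet in Klrk1-/- livers NCD-fed mouse 4 was left out, and on NCD that mouse and NCD-fed WT mouse 5.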
